A study of Mus musculus with 3 samples.

Results

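The colony-stimulating factor receptors and ligands described here are 9 of the 27998 genes in the deposited matrix, taken by symbol: the receptors Csf1r, Csf2ra, Csf2rb, Csf2rb2, Csf3r, Flt3 and Kit, and the ligands Csf1 and Il34. They were measured by single-cell RNA sequencing (10x Genomics 3′ v2 chemistry) of cells that fluorescence sorting had selected for Cd11b, an integrin chain carried by myeloid cells, from brains without the cerebellum of C57BL6J female mice aged 5 months. The labels name 3 groups: Ctrl, untreated (1 animal), D0, fed a diet with 1200 mg/kg PLX5622 for 14 days (2 animals pooled), and D2, fed the same diet for 14 days and then control diet for 2 days (1 animal). PLX5622 is an inhibitor of the kinase of Csf1r. Each group is 1 library.

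Cell barcodes ended in 1, 2 or 3, and no label used here ties these numbers to Ctrl, D0 or D2. They are called library 1, library 2 and library 3, and no library was put in a group. With 1 library per group there is no replicate check, no p-value was computed, and differences between libraries describe those libraries and not the treatment. After filtering, 2137 cells were used, 1261 from library 1, 592 from library 2 and 284 from library 3, with median depths before filtering of 3662 to 8172 unique molecular identifiers (UMIs, each standing for 1 captured RNA molecule) per cell. No barcode sequence was shared between libraries. Levels are UMIs of a gene summed over the cells of a cluster or library, per 1000000 UMIs of those cells (CPM). Intervals are 95% intervals, exact Poisson for levels and Clopper-Pearson for shares of cells, and cover counting error only. Where a count was 0, the limit given is what 3 counts would set, which is a floor and not the end of such an interval.

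Csf1r is a receptor tyrosine kinase on microglia and other mononuclear phagocytes, and microglia of the adult brain depend on its signal for survival. Its ligands are Csf1 and Il34, the latter made in the brain mostly by neurons. Csf2ra is the binding chain for granulocyte-macrophage colony-stimulating factor (Csf2), and Csf2rb is the signalling beta chain that it shares with the interleukin-3 and interleukin-5 receptors. Csf2rb2 is a close copy of Csf2rb that serves the interleukin-3 receptor in the mouse. Csf3r binds granulocyte colony-stimulating factor and is best known from neutrophils. Flt3 and Kit are kinases of the same structural class as Csf1r. Flt3 is known for its part in dendritic cell development, and Kit marks mast cells and blood progenitors.

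The cells fell into 12 clusters, built without the 9 genes, of which 9 were named from marker lists. Clusters 0, 1 and 2 were microglia-like and together held 1092 cells, 1063 from library 1, 29 from library 2 and none from library 3. Cluster 2 passed the marker rule for 10 of 10 microglia markers but its leading genes were those of stress and inflammation, among them Gdf15, Egr1, Tnf and Ccl3. Cluster 4 was border-associated-macrophage-like (68 cells, all from library 1), and 10 of 10 microglia markers passed there too. The other named clusters were neutrophil-like (cluster 3, 132 cells), type 2 conventional-dendritic-like (cluster 5, 297 cells), natural-killer-like (NK-like, cluster 7, 125 cells), migratory-dendritic-like (cluster 9, 60 cells) and classical-monocyte-like (cluster 10, 115 cells). Cluster 5 was also led by Ptgds, Dcn and Acta2, genes of stromal cells. The labels call the samples microglia, whereas 1045 of the 2137 cells lay outside the microglia-like clusters.

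The remaining 3 clusters stayed unnamed. Cluster 6 (72 cells) was led by Ttr, Npy and Fabp7. Cluster 8 (79 cells) was led by the endothelial genes Cldn5 and Flt1 together with Eno3 and Cd300e, which mark non-classical monocytes. Cluster 11 (97 cells, median depth 13825 UMIs) was led by the basophil genes Prss34 and Mcpt8 together with the cell cycle genes Birc5 and Top2a. Doublet calling marked 7 of 2144 cells, or 0.326%, a yield too low to count as working, so doublets may remain in every cluster.

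Of the 9 genes, 6 had a promoter window in the RefSeq table used (GRCm38.p6): Csf1, Csf2ra, Csf2rb2, Csf3r, Flt3 and Kit. Windows ran from 250 bases before to 50 bases after the annotated start. The motif GAGGAAG, the core bound by the myeloid factor PU.1 (Spi1), was searched on both strands, where its reverse reads CTTCCTC. It lay in the windows of 4 of these 6 genes (Csf2ra, Csf2rb2, Csf3r and Kit), against 13.6% of 32851 windows of the same length. Shown are Csf2ra and Csf3r, the receptors seen most widely after Csf1r, and Flt3, which was nearly absent from microglia-like cells; capitals mark the motif.
Csf2ra, chr19:61228369-61228668, minus strand: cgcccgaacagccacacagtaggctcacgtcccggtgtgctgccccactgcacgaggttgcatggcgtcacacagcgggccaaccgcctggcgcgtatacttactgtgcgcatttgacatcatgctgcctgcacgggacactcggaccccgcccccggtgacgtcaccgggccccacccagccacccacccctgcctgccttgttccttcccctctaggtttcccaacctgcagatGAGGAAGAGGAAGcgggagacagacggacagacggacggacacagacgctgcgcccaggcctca
Csf3r, chr4:126024409-126024708, plus strand: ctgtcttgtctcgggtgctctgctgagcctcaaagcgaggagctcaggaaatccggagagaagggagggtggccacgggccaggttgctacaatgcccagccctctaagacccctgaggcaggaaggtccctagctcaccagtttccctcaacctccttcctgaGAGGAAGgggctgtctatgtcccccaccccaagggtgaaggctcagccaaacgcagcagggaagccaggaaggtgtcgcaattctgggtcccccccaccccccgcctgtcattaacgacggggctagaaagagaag
Flt3, chr5:147400440-147400739, minus strand: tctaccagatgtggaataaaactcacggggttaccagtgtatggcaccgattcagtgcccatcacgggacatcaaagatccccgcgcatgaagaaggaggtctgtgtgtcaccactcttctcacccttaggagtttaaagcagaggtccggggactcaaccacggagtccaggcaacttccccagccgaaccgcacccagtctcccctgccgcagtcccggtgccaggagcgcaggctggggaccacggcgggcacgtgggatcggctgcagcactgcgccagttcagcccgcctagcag
The Csf2ra window held 2 matches that overlap by 1 base, a number that 1.31% of all windows reached or passed. The Csf3r window held 1 match and the Flt3 window none. Presence of the motif did not sort these genes by detection in microglia-like cells. Kit had the motif and 0 UMIs there, and Csf1 lacked it and had 114 UMIs. Csf2ra, Csf2rb2 and Csf3r had the motif and were detected there, and Flt3 lacked it and had 1 UMI. A match is a string of letters in this window and not a measured binding site.

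Csf1r (chromosome 18, 61100598 to 61132149, plus strand, GRCm38) overlaps Hmgxb3 on the other strand, and whether the counting used strand is not given in the sources used here. It had 16934 UMIs and was detected in 1647 of the 2137 cells (77.1%). It was seen in more cells than any of the other 8 genes, with marked differences in level between clusters. Over all microglia-like cells its level was 2669 CPM (2624 to 2715), and single cells ranged from 0 to 56 UMIs with a median of 10. By cluster it was 2853 CPM (2766 to 2942) in cluster 0, 2713 CPM (2642 to 2786) in cluster 1 and 2431 CPM (2353 to 2512) in cluster 2. The intervals of clusters 0 and 1 overlapped, and that of cluster 2, the one led by stress genes, lay below both. The border-associated-macrophage-like cells followed at 2179 CPM (2074 to 2288), below each microglia-like cluster.

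Below the macrophages came the 3 unnamed clusters, the monocyte-like cells and the neutrophil-like cells. Csf1r stood at 956 CPM (863 to 1056) in cluster 6, 484 CPM (405 to 574) in cluster 8 and 399 CPM (367 to 432) in cluster 11. The classical-monocyte-like cells had 313 CPM (279 to 350) and the neutrophil-like cells 303 CPM (268 to 342). Clusters 8 and 11 did not differ beyond their counting intervals, and neither did the monocyte-like and neutrophil-like clusters. The type 2 conventional-dendritic-like cells had 176 CPM (160 to 193), the NK-like cells 64.3 CPM (42.4 to 93.6) and the migratory-dendritic-like cells 27.6 CPM (14.7 to 47.2). The last pair again overlapped.

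**Figure D1:**
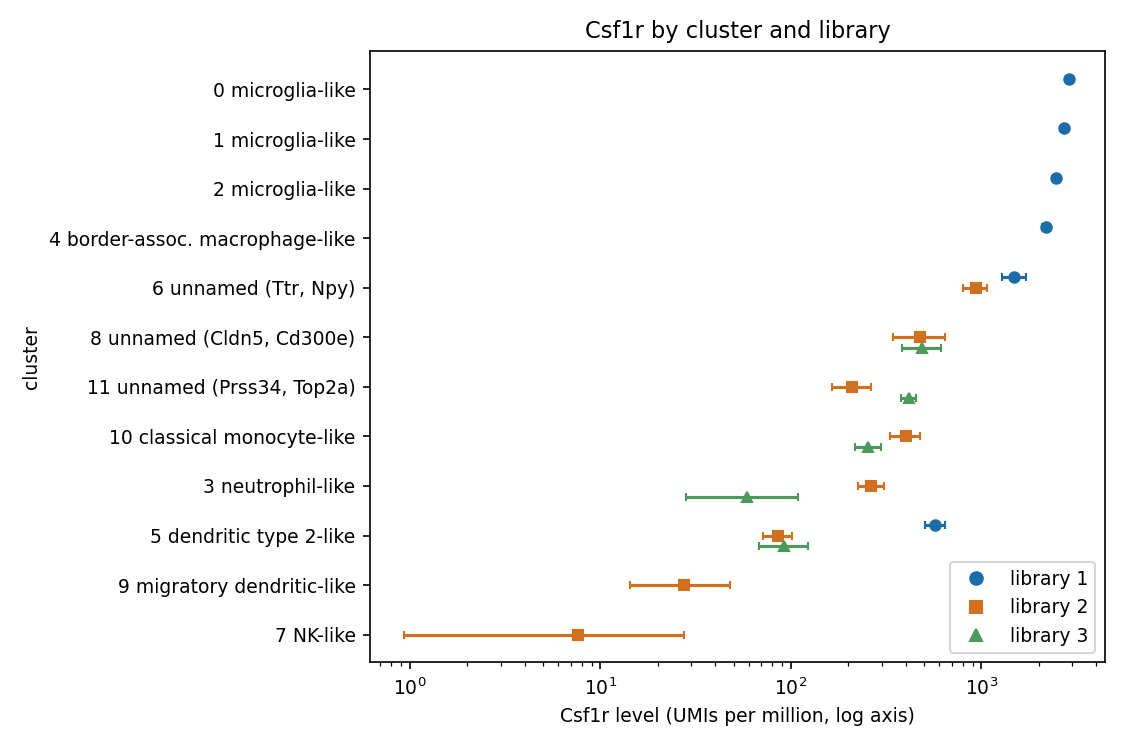
Csf1r level in CPM (log axis) in each cluster, with 1 point per library for libraries that gave at least 20 cells and at least 1 Csf1r UMI. Bars are 95% Poisson intervals (counting error only). Library 1 of the dendritic-like cluster 5 lies above libraries 2 and 3 of that cluster.

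Depth differed between clusters, so shares of cells with at least 1 UMI were taken after each cell was thinned to 2000 UMIs. In the microglia-like cells 1017 of 1022 thinned cells, or 99.5%, had Csf1r. In the NK-like cells, a lymphoid type that should lack the receptor, the share was 4 of 109 cells, or 3.67% (1.01% to 9.13%). Median depth before thinning was 3366 UMIs in the microglia-like cells and 3025 UMIs in the NK-like cells. Without thinning, 99.7% of microglia-like cells had a Csf1r UMI. The migratory-dendritic-like share, 3.33%, was no higher than this background, while the shares in the monocyte-like (35.7%), neutrophil-like (30.6%) and type 2 dendritic-like cells (23.2%) were above its interval.

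Csf1r outside the microglia-like clusters was concentrated in cells that also carried microglia markers (10 genes, among them P2ry12 and Tmem119). Cells were split at 0.3% of their UMIs from these markers, an alternative chosen after the data had been seen. Among the neutrophil-like cells, the 26 cells above this line had 1148 CPM of Csf1r and the 106 below it had 103 CPM (80.6 to 129). Among the type 2 dendritic-like cells, the 32 cells above had 882 CPM and the 265 below had 85.3 CPM. In the NK-like cluster, 2 cells above the line, both of library 1, held 24 of the 27 Csf1r UMIs, and the other 123 cells had 7.4 CPM. In each of these clusters the marker-bearing cells, a minority, were the high ones.

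In the monocyte-like cluster and cluster 8 most of the signal lay in cells below the line. The 107 monocyte-like cells below it had 258 CPM, against 788 CPM in the 8 above it. In cluster 8, where 10 of 10 non-classical monocyte markers passed the marker rule, 78 of 79 cells were below the line and had 478 CPM. Cluster 6 showed the opposite arrangement, with 1341 CPM in 55 cells above and 41.6 CPM in 17 below. Cluster 11 was between these, with 668 CPM in 35 cells above and 198 CPM in 62 below. The part of RNA from microglia in these levels was not tested.

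**Figure D2:**
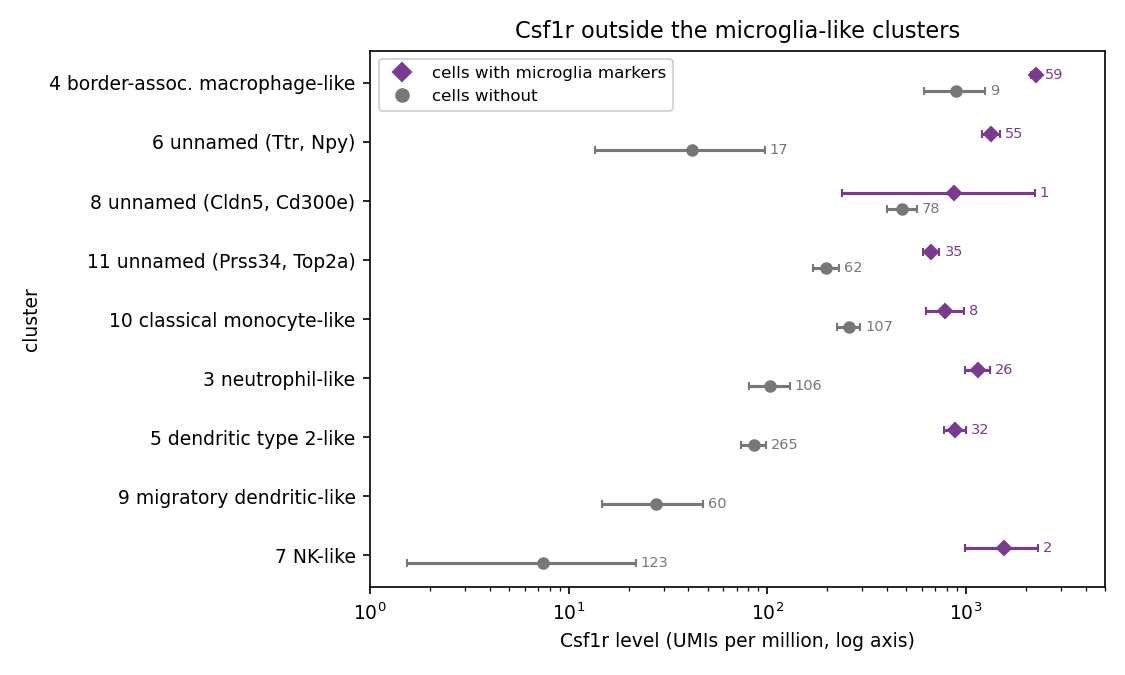
Csf1r level in CPM (log axis) in the clusters outside the microglia-like ones, split by whether at least 0.3% of a cell's UMIs came from microglia markers. Bars are 95% Poisson intervals and the small numbers give the cells behind each point. In the NK-like cluster the 2 marker-bearing cells lie far above the other 123.

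Between libraries, the comparison of the microglia-like cells asks whether the receptor differs in the few microglia-like cells of library 2. A gene was called when its level differed at least 2-fold with intervals that did not overlap, among genes with at least 50 UMIs in both libraries together. Csf1r was at 2689 CPM (2643 to 2736) in 1063 cells of library 1, against 1845 CPM (1609 to 2105) in 29 cells of library 2. The log2 ratio was -0.54 (-0.74 to -0.35), beside a median of -0.11 over all 7114 genes tested. The intervals did not overlap, but the difference was under 2-fold. In 4 alternative ways of choosing the cells, listed in the closing section, the ratio lay between -0.80 and -0.92. The same order held in each microglia-like cluster, with 2877 against 2127 CPM in cluster 0, 2725 against 1772 CPM in cluster 1 and 2459 against 1611 CPM in cluster 2. The library 2 values there rest on 15, 7 and 7 cells. They split the same 29 cells and are not further comparisons.

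The microglia markers moved with it. Their summed level was 40410 CPM in library 1 against 29912 CPM in library 2 for cluster 0, 34980 against 20943 CPM for cluster 1, and 28196 against 18748 CPM for cluster 2, from the same few cells of library 2. The part of this marker difference in the Csf1r ratio was not tested. Of the 9 genes, 5 could be tested in this comparison and 0 were called, against 3.84% of all genes tested. When clusters were built at a finer resolution, with the 9 genes kept, or from cells with at most 5% mitochondrial UMIs, 1 of them, Csf1, was called.

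In the type 2 dendritic-like cluster Csf1r was at 570 CPM in library 1 (57 cells), 85.2 CPM in library 2 (185 cells) and 92.4 CPM in library 3 (55 cells). Library 1 thus stood above the other two. Csf1r was the 1 gene called of 4 tested between libraries 1 and 2, against 7.23% of all genes, and the 1 called of 3 tested between libraries 1 and 3, against 10.4%. The summed microglia markers followed the same order, at 5667, 683 and 654 CPM. In cells below the marker line the levels were 222, 60.1 and 91.1 CPM, so library 1 remained the highest there.

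Neutrophil-like cells showed a similar arrangement, at 1162 CPM of Csf1r in library 1 (15 cells), 264 CPM in library 2 (89 cells) and 58.9 CPM in library 3 (28 cells). The microglia markers summed to 13213, 2016 and 236 CPM in the same libraries. In cells below the marker line the levels were 32.6 CPM (0.82 to 181, from 1 UMI), 122 CPM (93.4 to 156) and 58.9 CPM (28.3 to 108), and no pair differed beyond its intervals. Library 1 supplied 1063 of the 1092 microglia-like cells in the data, and the part of this in the levels of its other cells was not tested.

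The monocyte-like cluster and clusters 8 and 11 came mostly from libraries 2 and 3. In the monocyte-like cells Csf1r was at 400 CPM in library 2 (50 cells) and 255 CPM in library 3 (57 cells), under 2-fold apart. The summed microglia markers were at 1926 and 498 CPM there, and in cells below the marker line Csf1r was at 312 CPM (244 to 393) and 229 CPM (193 to 270), with overlapping intervals. In cluster 8 it was level, at 478 CPM in library 2 (30 cells) and 489 CPM in library 3 (41 cells). Cluster 11 went the other way, with 210 CPM in library 2 (33 cells) and 415 CPM in library 3 (62 cells), a log2 ratio of 0.98 that fell short of 2-fold. The summed microglia markers were at 2124 and 4149 CPM in these libraries. Below the marker line Csf1r in cluster 11 was at 43.9 CPM (23.4 to 75.0) in library 2 against 284 CPM (241 to 332) in library 3, and above it at 1154 CPM (881 to 1485) and 543 CPM (484 to 609). The 2 parts of the cluster thus ran in opposite directions between the libraries in these counts. The part above the line was 7 cells in library 2 and 27 in library 3, and the part below it 26 and 35. Spread between cells is not covered by the intervals.

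Csf3r (chromosome 4, 126024550 to 126044440, plus strand) had 1291 UMIs in 746 cells (34.9%). It was highest in the neutrophil-like cells, at 219 CPM (189 to 252), and next in the microglia-like cells. Clusters 0, 1 and 2 stood at 166 CPM (146 to 189), 165 CPM (147 to 184) and 167 CPM (146 to 189). These 3 levels were indistinguishable, unlike those of Csf1r in the same clusters, and their intervals ended just short of that of the neutrophil-like cells. The 26 neutrophil-like cells with microglia markers had 345 CPM of Csf3r, and the other 106 had 189 CPM (158 to 224), which overlapped the microglia-like clusters. The border-associated-macrophage-like cells had 138 CPM (112 to 167), overlapping the microglia-like clusters. Levels then dropped to 73.9 CPM in cluster 6, 59.6 CPM in the monocyte-like cells, 43.7 CPM in cluster 8 and 27.8 CPM in cluster 11. Both dendritic-like clusters and the NK-like cells were lowest, at 14.9 CPM (migratory), 11.9 CPM (type 2) and 2.4 CPM (NK-like).

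After thinning, 27.8% (25.1% to 30.6%) of microglia-like cells and 34.7% (26.4% to 43.7%) of neutrophil-like cells had a Csf3r UMI. In the NK-like cells 0 of 109 had one, where 3 counts would set a limit of 2.75%. The Csf3r signal in microglia-like cells was thus well above the NK-like background. Of the 1022 thinned microglia-like cells, 283 (27.7%) had both Csf1r and Csf3r. Since nearly every microglia-like cell had Csf1r, this share is that of Csf3r itself.

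Csf3r in the microglia-like cells was at 165 CPM (154 to 177) in library 1 against 176 CPM (109 to 269) in library 2, a log2 ratio of 0.09 (-0.61 to 0.71). The 2 libraries did not differ beyond counting error, though with 21 UMIs in library 2 a difference within that interval would not be detectable. Neutrophil-like cells had 313, 223 and 159 CPM in libraries 1, 2 and 3, with overlapping intervals. In the monocyte-like cells Csf3r was at 88.5 CPM in library 2 and 42.3 CPM in library 3. Their log2 ratio was -1.06, but the intervals of the 2 levels overlapped. In that cluster 0 of 4 genes tested were called between libraries 2 and 3, against 5.46% of all genes.

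**Figure D3:**
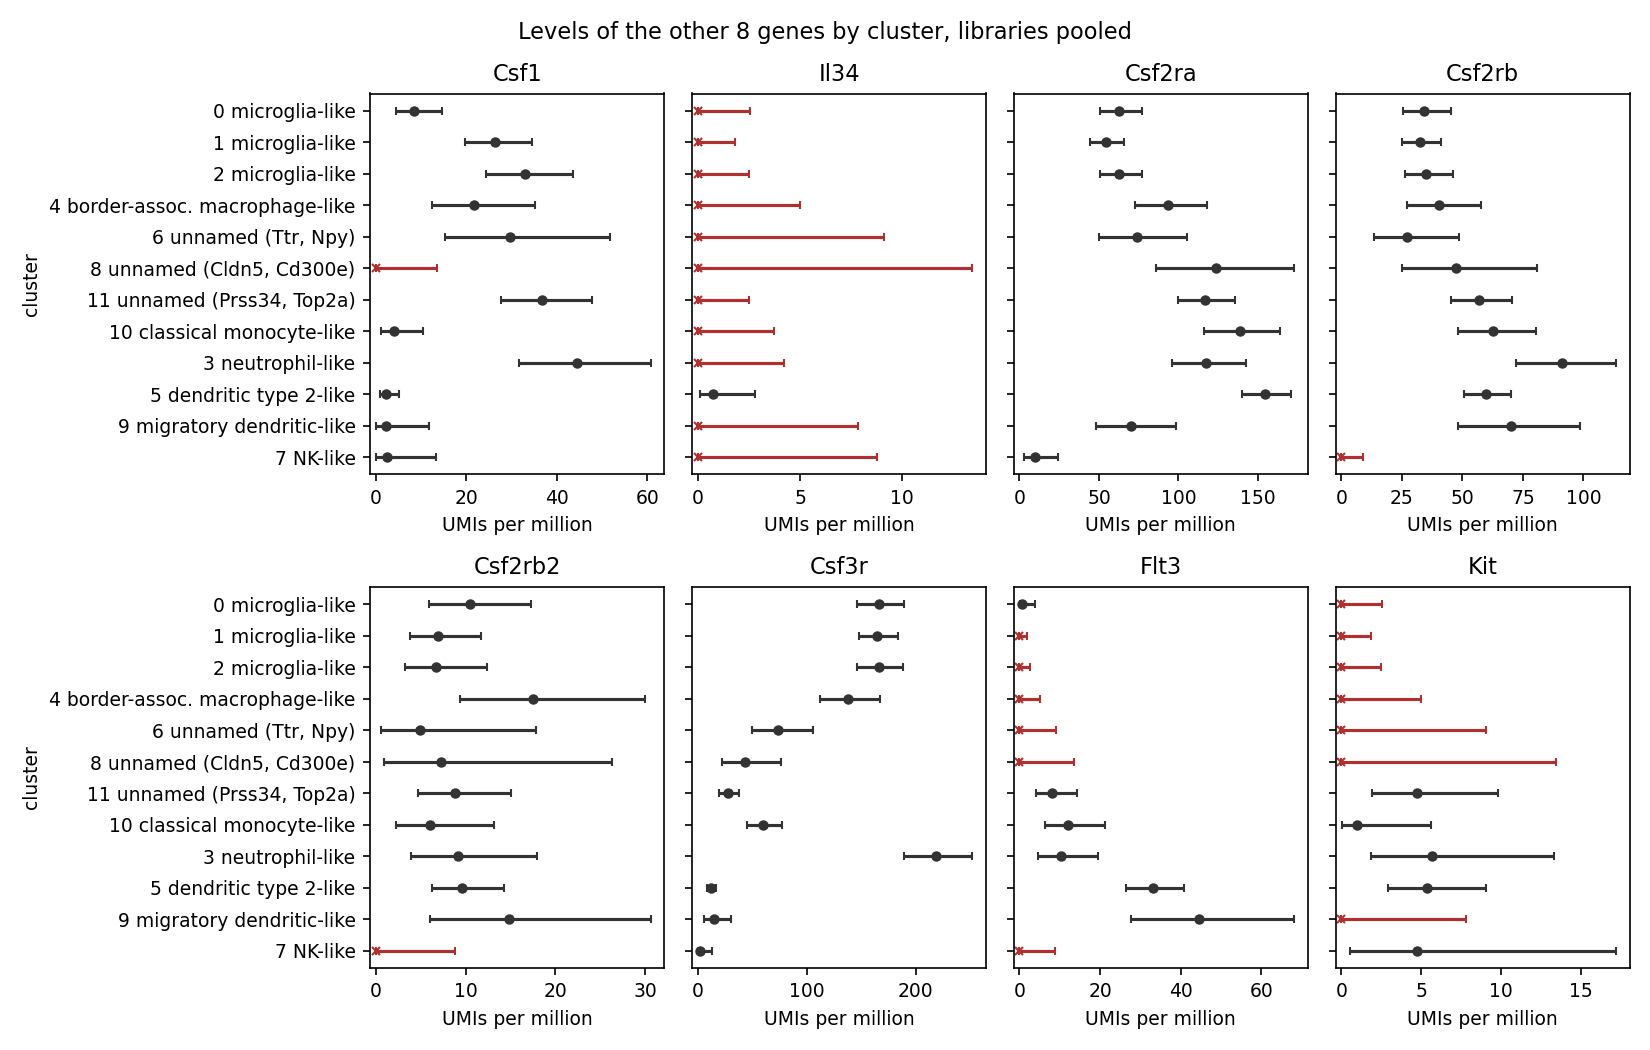
Levels in CPM of the other 8 genes in each cluster with the libraries pooled, 1 panel per gene and each panel on its own linear axis starting near 0. Bars are 95% Poisson intervals and red crosses mark clusters with 0 UMIs. Csf3r is high in the neutrophil-like and microglia-like clusters, Flt3 in the dendritic-like ones, and Il34 is near 0 in every cluster.

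Csf2ra (chromosome 19, 61223957 to 61228429, minus strand) had 1275 UMIs in 732 cells (34.3%), a similar number of cells to Csf3r but in a different order of clusters. Its highest level was in the type 2 dendritic-like cells, at 155 CPM (140 to 170). The monocyte-like cells (138 CPM, 116 to 164), cluster 8 (124 CPM, 85.7 to 173), the neutrophil-like cells (117 CPM, 95.8 to 142) and cluster 11 (117 CPM, 99.99 to 136) followed with overlapping intervals between neighbours. Microglia-like cells were lower, from 54.3 to 62.9 CPM in their 3 clusters. The NK-like cells were lowest with 9.5 CPM from 4 UMIs. After thinning, 29.97% of type 2 dendritic-like cells and 25.2% of monocyte-like cells had a Csf2ra UMI, against 1.83% of NK-like cells.

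By library, Csf2ra in the type 2 dendritic-like cells was at 169, 163 and 115 CPM in libraries 1, 2 and 3, with no pair called. In the microglia-like cells it was at 58.9 CPM in library 1 and 75.5 CPM (34.5 to 143) in library 2, from 9 UMIs. Cluster 11 was the exception, at 201 CPM (157 to 254) in library 2 against 90.6 CPM (73.6 to 110) in library 3. There Csf2ra and Csf1 were the 2 genes called of 4 tested, both lower in library 3, against 13.6% of all genes called either way in that cluster and 4.56% lower. The Csf1 call rests on 24 UMIs in 8 of 33 cells of library 2 and 29 UMIs in 12 of 62 cells of library 3.

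Csf2rb (chromosome 15, 78325752 to 78353847, plus strand), the signalling partner of Csf2ra, had 634 UMIs in 450 cells (21.1%). It was highest in the neutrophil-like cells at 91.1 CPM (72.3 to 113), then in the migratory-dendritic-like (70.1 CPM), monocyte-like (62.7 CPM) and type 2 dendritic-like cells (59.7 CPM), each overlapping the next. Microglia-like clusters ranged from 32.4 to 35.1 CPM, and 0 UMIs were seen in the NK-like cells. For both chains the microglia-like clusters lay below the type 2 dendritic-like, monocyte-like and neutrophil-like cells, and the NK-like cells were lowest. Other clusters overlapped the microglia-like ones, among them the border-associated-macrophage-like cells for Csf2rb and the migratory-dendritic-like cells for Csf2ra. Both chains were seldom caught in 1 cell: after thinning, 10 of 297 type 2 dendritic-like cells and 4 of 1022 microglia-like cells had a UMI of both. In these type 2 dendritic-like cells Csf2rb was seen in 11.2% (5.5% to 19.7%) of cells with Csf2ra and 9.13% (5.6% to 13.9%) of cells without it. The low joint count thus does not show that the chains lie in different cells.

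In the neutrophil-like cells Csf2rb was at 78.3 CPM in library 1 from 6 UMIs, 108 CPM (83.6 to 136) in library 2 against 35.4 CPM (12.97 to 76.95) in library 3. Between libraries 2 and 3, 2 of 4 genes tested were called, Csf1r and Csf2rb, both lower in library 3, against 12.7% of all genes called either way and 9.94% lower. Csf2rb rests there on 6 UMIs in library 3. In the monocyte-like cells it was at 81.9 CPM in library 2 and 56.4 CPM in library 3, with overlapping intervals.

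Csf2rb2 (chromosome 15, 78282507 to 78305721, minus strand) lies beside Csf2rb and had 115 UMIs in 105 cells (4.91%). Its level ran from 17.6 CPM (9.35 to 30.02) in the border-associated-macrophage-like cells to 0 UMIs in the NK-like cells, and every neighbouring pair overlapped. The interval of the highest cluster lay above that of the NK-like cells (0 to 8.79 CPM), and no finer order can be read. Counts of the pair are uncertain because their 3′ ends share sequence. Of the 50-base stretches in the last 500 bases of Csf2rb transcripts 13.4% also occur in Csf2rb2 transcripts, and 2.33% the other way round. How the authors' counting treated reads that match both is not given in the sources used here.

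Flt3 (chromosome 5, 147330741 to 147400489, minus strand; Gm26597 overlaps it on the plus strand) had 141 UMIs in 115 cells (5.38%), and 107 of these UMIs were in the 2 dendritic-like clusters. It reached 44.6 CPM (27.6 to 68.2) in the migratory-dendritic-like and 33.2 CPM (26.5 to 40.9) in the type 2 dendritic-like cells, which overlapped. The monocyte-like (12.1 CPM), neutrophil-like (10.3 CPM) and cluster 11 cells (8.1 CPM) were lower. A single UMI was seen in 1092 microglia-like cells, and 0 in the border-associated-macrophage-like cells, the NK-like cells and clusters 6 and 8. The microglia-like clusters, with the highest Csf1r, thus had almost no Flt3, while the NK-like cells were low in both genes.

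In the type 2 dendritic-like cells Flt3 was at 33.4 CPM (19.1 to 54.2) in library 1, 39.5 CPM (30.3 to 50.5) in library 2 against 13.5 CPM (5.4 to 27.8) in library 3. The interval of library 3 lay below that of library 2 but overlapped that of library 1. Flt3 was the 1 gene called of 4 tested between libraries 2 and 3, against 4.83% of all genes, and it rests on 7 UMIs in library 3. The level over both dendritic-like clusters, 34.9 CPM (28.6 to 42.2), was 17.7 CPM when cells with at least 1000 genes were used, a shift whose cause was not tested.

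Kit (chromosome 5, 75574916 to 75656722, plus strand) had 29 UMIs in 24 cells (1.12%). The type 2 dendritic-like cells gave 14 of these UMIs (5.4 CPM), cluster 11 gave 7 (4.8 CPM), the neutrophil-like cells 5 (5.7 CPM), the NK-like cells 2 and the monocyte-like cells 1. The microglia-like cells gave 0 UMIs in 1092 cells, where 3 counts would set a limit of 0.609 CPM (upper end of the interval 0.749 CPM). At these counts no order among the clusters with Kit can be read.

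**Figure D4:**
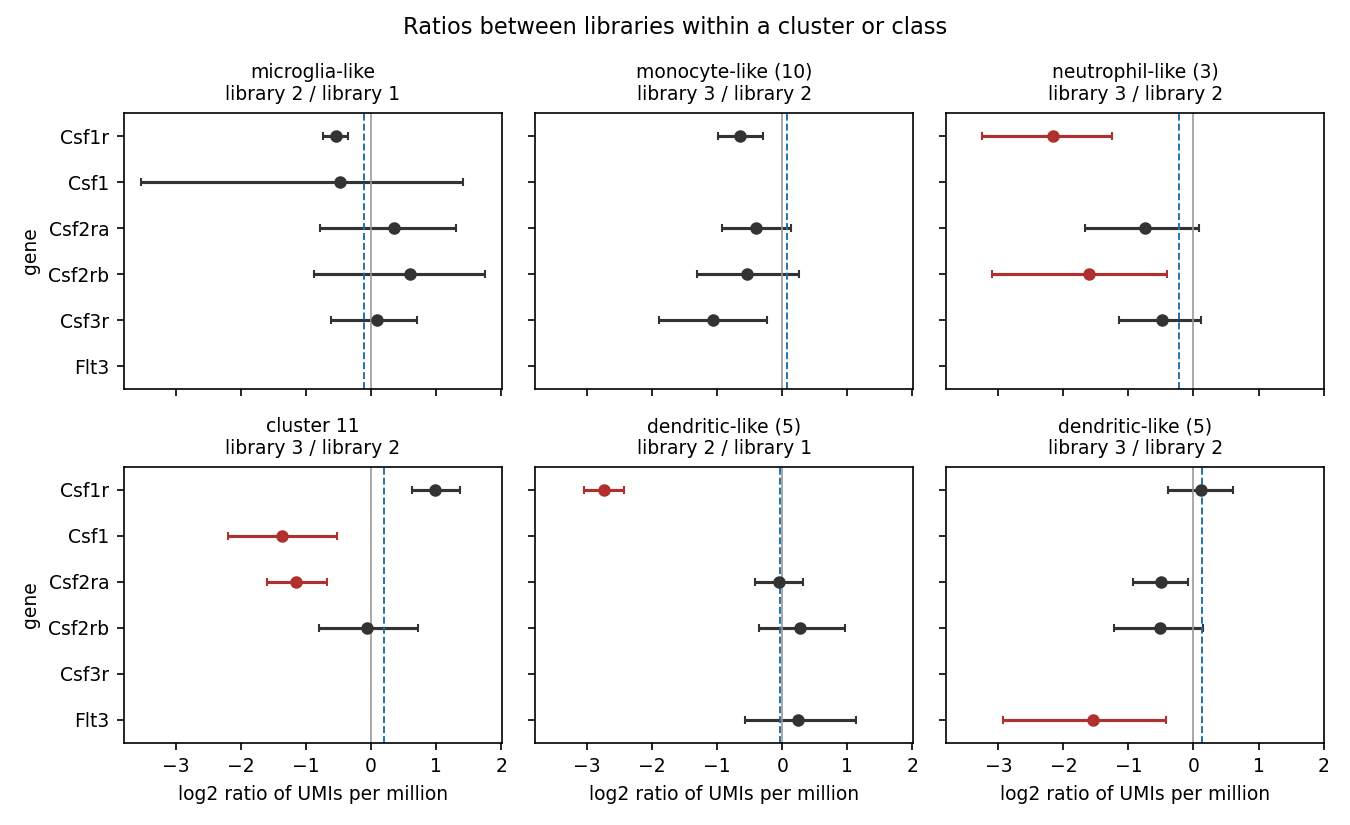
Log2 ratios of the level in CPM between libraries within a cluster or class, for the genes with at least 50 UMIs in both libraries together. Bars are 95% intervals for counting error, red points were called (at least 2-fold with intervals of the levels apart), the grey line is 0 and the dashed line is the median of all genes tested. In the microglia-like panel no gene was called, and in the dendritic-like panels Csf1r and Flt3 are the red points.

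Among the ligands, Csf1 (chromosome 3, 107741048 to 107760469, minus strand) had 247 UMIs in 146 cells (6.83%). The highest levels were in the neutrophil-like cells, at 44.4 CPM (31.6 to 60.7), in cluster 11, at 36.7 CPM (27.5 to 47.8), and in the microglia-like cluster 2, at 33.0 CPM (24.4 to 43.7), all overlapping. The microglia-like clusters differed among themselves: cluster 1 stood at 26.4 CPM (19.8 to 34.5) and cluster 0 at 8.4 CPM (4.3 to 14.6), below the intervals of the other two. For cluster 0 against cluster 2 this is the reverse of Csf1r, which was highest in cluster 0 and lowest of the 3 in cluster 2. Cluster 1 overlapped cluster 2 for Csf1 and cluster 0 for Csf1r. Type 2 dendritic-like, monocyte-like, NK-like and migratory-dendritic-like cells had 2.1 to 4.0 CPM, and cluster 8 had 0 UMIs.

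In the neutrophil-like cells 34 of the 39 Csf1 UMIs came from library 2, in 20 cells, at 53.8 CPM (37.3 to 75.2). Library 3 had 5.9 CPM from 1 UMI, and library 1 had 52.2 CPM from 4 UMIs in 1 cell. Without library 2 the neutrophil-like level of Csf1 was 20.3 CPM. In the microglia-like cells Csf1 was at 23.3 CPM (19.2 to 28.1) in library 1 against 16.8 CPM (2.0 to 60.6) in library 2, where it rests on 2 UMIs. The direction turned under the 3 alternatives in which it was called, with 50.4 to 51.2 CPM in 63 to 67 cells of library 2 against 23.1 to 23.2 CPM in library 1, so no direction can be read. In cluster 11 it was at 68.9 CPM (44.1 to 102) in library 2 against 26.5 CPM (17.8 to 38.1) in library 3, seen in 8 of 33 and 12 of 62 cells. A few cells with basophil genes, described in the last section, held much of the Csf1 of this cluster. Their part in the difference between libraries was not tested.

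Il34 (chromosome 8, 110741829 to 110805924, minus strand; overlapped by Gm15894 and Gm15895) had 2 UMIs, both in 1 type 2 dendritic-like cell of library 2. Of the 2 ligands of Csf1r, Csf1 was thus the one detected in these sorted cells, which hold few neurons: summed neuron markers reached at most 76.4 CPM, in cluster 6.

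Other ligands and receptors of the same families mostly had few UMIs. Of 12 such genes, 3 had at least 50 UMIs in all cells: Il3ra, the binding chain of the interleukin-3 receptor (254 UMIs, highest in the migratory-dendritic-like cells at 48.8 CPM), the Flt3 ligand Flt3l (92 UMIs, highest in the NK-like cells at 45.3 CPM) and the Kit ligand Kitl (79 UMIs, highest in cluster 8 at 32.8 CPM). No intervals were taken for these levels, so the order of clusters is not firm. Il3ra was also at 40.7 CPM in cluster 11, and 48 of the 79 Kitl UMIs were in microglia-like cells of library 1. Csf3, Il3, Il5 and Il5ra had 0 UMIs, and Csf2 had 1. Ptprz1, named after its values were seen, had 26 UMIs, all in cluster 6, where it reached 64.1 CPM. None of the 12 had enough UMIs to be tested between libraries 1 and 2 in the microglia-like cells.

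Genes that signal below Csf1r were measured well, and 16 of 20 could be tested between libraries 1 and 2 in the microglia-like cells. None was called, and their median log2 ratio was -0.31 beside -0.11 for all genes. Tyrobp, the adaptor that couples to Csf1r signalling, was at 3711 CPM in library 1 and 4922 CPM in library 2. The phosphatase gene Ptpn6 was at 285 and 226 CPM, and the Src-family kinase gene Lyn at 433 and 352 CPM. Tyrobp was thus higher in library 2, in which Csf1r was lower.

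Of 10 JAK-STAT genes below the common beta chain and Csf3r, 4 were tested, 0 were called, and the median log2 ratio was 0.53. Socs3, a feedback inhibitor of these receptors, was at 460 CPM in library 1 and 755 CPM (607 to 928) in library 2, a log2 ratio of 0.71 (0.39 to 1.02) with intervals of the levels apart but under 2-fold. The kinase gene Pim1 was at 31.6 and 58.7 CPM, from 7 UMIs in library 2, and Stat3 at 59.3 and 75.5 CPM. The fourth tested gene, Bcl2l1, named after its values were seen, ran the other way at 62.4 and 25.2 CPM, from 3 UMIs in library 2 and with a log2 ratio of -1.31 (-3.60 to 0.25).

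Of 8 transcription factors that act on the Csf1r gene, 7 were tested, 0 were called, and the median log2 ratio was -0.31. Cebpb was at 931 and 797 CPM in libraries 1 and 2, and Spi1, which encodes PU.1, at 566 and 394 CPM. Both stood lower in library 2, as Csf1r did.

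The genes most like each member were found as the highest Pearson correlation of log2(CPM + 10) over the 12 clusters, among 5995 genes with at least 200 UMIs. The clusters differ in depth and in the library most of their cells came from, so r is a description. Nearest to Csf1r was Cx3cr1, the microglial fractalkine receptor (r = 0.99), and Lair1, Mef2c and Daglb were also close (0.98 each). Nearest to Flt3 were Ccl17, itself 1 of the type 2 dendritic markers used for naming (0.98), and Dpp4 (0.95). Csf2ra and Csf2rb were among each other's 5 nearest genes (0.90). Nearest to Csf3r were Narf (0.94) and Trpm2 (0.93), to Csf1 Rab20 (0.86) and Il1a (0.84), and to Csf2rb2 Furin (0.83). Between members, Csf1r had r = 0.82 with Csf3r and -0.70 with Flt3.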

How the data were processed

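The deposited matrix holds UMI counts per gene and cell as the authors made them, and per the submitters' processing notes Cell Ranger 2.0.1 and mm10 were used. The labels' protocol names 4 samples, of which 3 are described here. Cells were kept with at least 500 genes and at most 10% mitochondrial UMIs (5 of 2149 removed), and Scrublet in scanpy 1.11.5 removed 7 as doublets. Clusters came from 2000 variable genes without the 9 members, 30 principal components, 15 neighbours and Leiden resolution 0.5. A cluster took a name from at least 3 markers of a list, each in at least a fraction of 0.3 of its cells and at least 2 times the median over clusters, unless its 10 leading genes went against it. Of the 18 marker lists, 7 named a cluster. The summed level of the others peaked at 6493 CPM (non-classical monocyte, cluster 8), 1012 CPM (type 1 dendritic, cluster 0), 1619 CPM (plasmacytoid, cluster 0), 433 CPM (T cell, cluster 7), 61.9 CPM (B cell, cluster 8), 453 CPM (mast cell or basophil, cluster 11), 1193 CPM (astrocyte, cluster 6), 771 CPM (oligodendrocyte, cluster 6), 76.4 CPM (neuron, cluster 6), 2457 CPM (endothelial or mural, cluster 8) and 2643 CPM (proliferating, cluster 11). Gene positions are those of GENCODE for GRCm38. Members are named always, and of 4 gene lists the called genes and the 3 with most UMIs. Some genes that these rules would name are not reported here. Members and lists were chosen with earlier results of these data known. The calling rule was tested only on simulated Poisson counts, the assumption behind its intervals, so spread between cells was not covered.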

Additional observations from a re-analysis of the deposited data

How the results depend on the processing

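No paired analysis was possible because each group is 1 library and no library is tied to a group. The values listed here kept their direction, except the library ratio of Csf1 in microglia-like cells. The Csf1r level in microglia-like cells, 2669 CPM, was 2586 at Leiden resolution 1.0, 2595 with the members kept for clustering, 2346 with cells named 1 by 1, 2613 with doublets kept, 2582 at 5% mitochondrial UMIs, 2767 as a mean over cells, 3138 without mitochondrial and ribosomal genes in the total, 2809 from thinned cells and 1845 without library 1. The Csf1r log2 ratio of library 2 to library 1, -0.54, was -0.80 at resolution 1.0, -0.81 with members kept, -0.92 with cells named 1 by 1 and -0.88 at 5% mitochondrial UMIs. In 3 of these settings (resolution 1.0, members kept, 5% mitochondrial) 1 member was called in place of 0: Csf1, at 23.1 to 23.2 CPM in library 1 and 50.4 to 51.2 CPM in library 2, where it rests on 15 or 16 UMIs, against 23.3 and 16.8 CPM otherwise. Csf3r in neutrophil-like cells, 219 CPM, was 185 with cells named 1 by 1, 307 as a mean over cells and 274 with the reduced total. Flt3 in dendritic-like cells, 34.9 CPM, was 17.7 with at least 1000 genes per cell, 49.4 with the reduced total and 24.2 without library 2. Csf2rb in monocyte-like cells, 62.7 CPM, was 84.2 with the reduced total. The cause of these shifts was not tested. Of 522 other levels 101 moved beyond their counting interval. Counted separately, 60 of the 522 differed over 1.5-fold from the main value, whether or not they left that interval. Of 108 shares 49 moved, under thinning to 1000 UMIs, no thinning or another random draw. Thinning to 1000 UMIs and leaving thinning out change the depth, which by itself shifts such a share. With a pseudocount of 1, from 1 (Csf2rb2) to 4 (Csf1) of each gene's 5 nearest genes were the same. Depth limits Il34, Kit and Csf2rb2, and every gene but Csf1r in the 29 microglia-like cells of library 2.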

Other observations

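Within cluster 11, Csf1, a ligand of Csf1r, was concentrated in a few cells that carried genes of basophils and mast cells. This split was made after the values had been seen. In cluster 11, the 8 cells with at least 10 UMIs of the mast cell and basophil markers held 28 of the 54 Csf1 UMIs, and each of the 8 had Csf1. Their Csf1 level was 614 CPM (408 to 888), against 18.2 CPM (11.9 to 26.7) in the other 89 cells of the cluster. Csf2rb, the beta chain that also serves the interleukin-3 receptor, was at 241 CPM in these 8 cells, and Csf2ra had 0 UMIs there. Over all clusters 12 cells met the rule, and they held 39 of the 247 Csf1 UMIs at 457 CPM. With the 8 cells left out, Csf1 in cluster 11 went from 36.7 to 18.2 CPM; the other 4 cells lay in other clusters and were not left out there.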
